A study of Gallus gallus with 4 samples.

Results

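The genes described here encode protein and lipid kinases and phosphatases, together with subunits and relatives of these enzymes. They were taken from the authors' deposited table of a chick RNA-seq comparison by symbol: every gene with a mean above 0 whose symbol begins with a stem of these families (MAPK, NEK, PRKG, PIM, PPP1R, PTPN, PIK3 and others), leaving out PTPRN2. That gave 24 genes of 17108 in the table. Only 1432 of the 17108 genes carry a symbol, so most kinases and phosphatases of the chick genome were not reached by the rule, and no Eph receptor, CDK, PLK or DGK gene is among the 24. CDK5 matched the stems but was listed at 0 and stayed out, as its mean has to exceed 0. RPL17, RPL34 and RPS26, genes of ribosomal proteins, were listed at 0 as well, so the 0 of CDK5 does not show that it was silent. At the other side of that limit, the lowest mean among the 24 was 1.47, for MAP3K7CL.

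Kinases add phosphate groups to proteins or to membrane lipids, and phosphatases take them off. Many phosphatases owe their substrate to a regulatory subunit: the PPP1R3 proteins, for example, bring protein phosphatase 1 to glycogen, where it activates glycogen synthase and turns off glycogen breakdown. In the developing neural tube, kinase cascades carry growth factor and guidance signals, cyclic nucleotide kinases modulate the response of axons to guidance cues, and NIMA-related kinases serve the mitotic spindle and cilia.

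RNA came from trunk neural tube cells of chick embryos electroporated in ovo at Hamburger-Hamilton stage 11 and collected 18 hours later. Control embryos (2 libraries) received the plasmid pCIG at 2 µg/µl, and Hoxb8 embryos (2 libraries) received Hoxb8-pCIG at 1 µg/µl with pCIG at 1 µg/µl, so both groups carry pCIG and the green fluorescent protein used to sort live cells. Electroporation reaches a part of the cells, the labels do not say how many embryos were pooled or which promoter drives the insert, and nothing says that replicates came from separate days. The p-values therefore rest on a spread between libraries that may be technical. How much of that spread is each gene's own cannot be told. The standard errors of the genes tested here lay at 0.943 to 1.10 times the median of genes of like level. The comparison asks which transcripts differ when Hoxb8 is added. The libraries averaged 79237283 normalised counts.

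The file holds, for each gene, 1 mean of normalised counts over the 4 libraries, a log2 fold change with its standard error, and p-values. It holds no value per library, so no spread within a group can be shown. The comparison is named only Hox against WT. It was taken as Hoxb8 against the pCIG control, and every direction given here rests on that reading. The standard errors do not exceed 0.267 even at the lowest means, which points to fold changes shrunk toward 0. They are read as shrunken values in what follows, and as such may understate changes in genes with few counts. HOXB8 is not in the table under its symbol, so the electroporated gene gives no check of the direction. Of 37 fixed markers of neural progenitors and of the other cell types a sorted fraction could hold, only 6 carry a symbol there and 0 of these were at 0. None of the 7 neuronal markers is among them. In the authors' deposited table PAX3, a dorsal progenitor and neural crest gene, stood at -0.82 ± 0.12 (standard error, here and for every ± in the text) and LMO2, of the blood and endothelium list, at 1.48 ± 0.17, and both were called. The progenitor gene ID3 (-0.32 ± 0.12), the endothelial gene PECAM1 (-0.028 ± 0.27), the mesoderm gene UNCX (-0.067 ± 0.25) and the surface ectoderm gene GRHL2 (-0.49 ± 0.26) were not called in the authors' deposited table. The part of these markers in the results was not tested.

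Of the 24 kinase and phosphatase genes, 22 had an adjusted p-value. Among these 22, 2 were higher in Hoxb8 (PPP1R3B and PRKG1), 1 was lower (PIM1) and 19 did not pass an adjusted p under 0.05 (Benjamini-Hochberg over all genes adjusted) in the authors' DESeq2 comparison. Over all genes the same threshold called 15.2 percent (1913 of 12574), with 8.72 percent higher and 6.49 percent lower, and among genes with a symbol it called 17.8 percent. The 13.6 percent called here is near that background. With the median of genes over 10000 set to 0, 1849 genes were higher and 361 lower, against 1097 and 816 as deposited, and with scores divided by their central spread 237 and 75. By level, 1 of 12 members with a mean of 100 to 1000 was called against 19.0 percent of all genes there, and 2 of 8 members at 1000 to 10000 against 15.1 percent. An unadjusted p under 0.05 was met by 7 of the 22, against 26.7 percent of all genes, and an adjusted p under 0.1 by 5, against 19.8 percent.

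**Figure D1:**
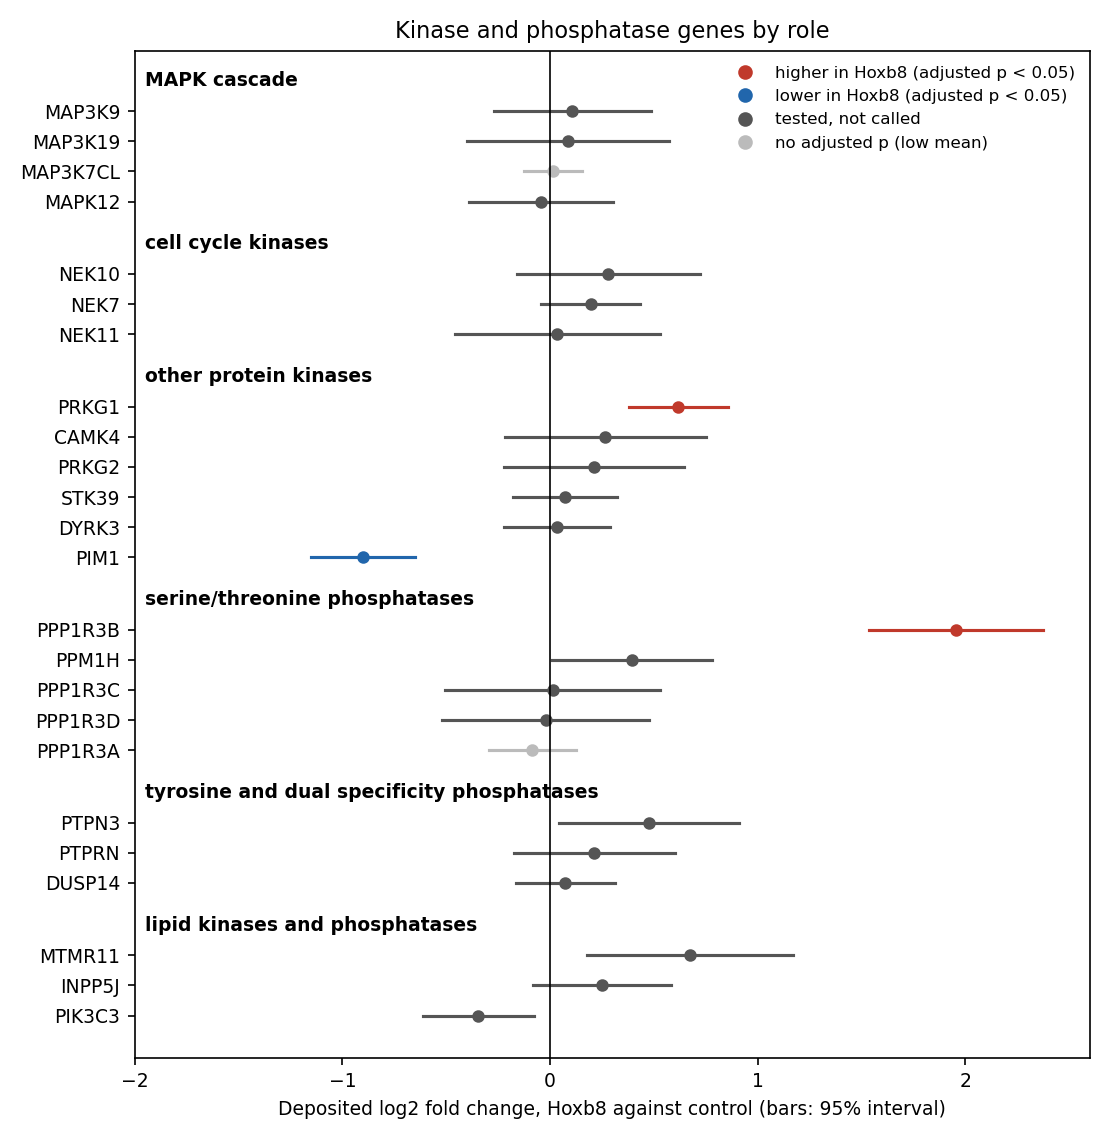
Deposited log2 fold change of each of the 24 genes, Hoxb8 against control, by role; points are the authors' values and bars the 95% interval computed from the deposited standard error. PPP1R3B (1.96) and PRKG1 (0.62) lie to the right of 0 and PIM1 (-0.90) to the left, while 4 further genes have intervals clear of 0 without passing the adjusted threshold.

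The serine/threonine phosphatase genes held the member with the lowest p. PPP1R3B (ENSGALG00000027275) encodes a glycogen-targeting subunit of protein phosphatase 1, best known from liver, that binds glycogen and the phosphatase together. In the authors' deposited table PPP1R3B rose, with a log2 fold change of 1.96 ± 0.21 at a mean of 436 normalised counts (adjusted p = 1.92e-17). That is a 3.88-fold rise with a 95% interval of 2.90 to 5.19. In RNA from a mixed cell fraction, a difference of this kind can come from a change in how many cells carry the transcript or in how much each cell holds, and these cannot be told apart. Taken at face value, the mean and this fold place the gene at about 179 normalised counts in control and 694 in Hoxb8. By p-value it ranked at 54 among 12574 genes and at 5 among the 1157 tested genes with a symbol.

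The other glycogen-targeting subunits with a symbol stood close to 0. PPP1R3C, also called protein targeting to glycogen, stood at 0.012 ± 0.26 (log2) in the authors' deposited table (mean 51.3, adjusted p = 0.986). PPP1R3D stood at -0.021 ± 0.26 there (the authors' deposited table, adjusted p = 0.971, mean 136). PPP1R3A, the subunit of skeletal muscle, had a mean of only 3.09 in the authors' deposited table, 12.4 normalised counts over the 4 libraries together, and no adjusted p. The upper ends of the 95% intervals were 0.53 for PPP1R3C and 0.48 for PPP1R3D on the log2 scale, below the lower end of 1.53 for PPP1R3B. The difference between the genes was not itself tested, and PPP1R3C and PPP1R3D have fewer counts than PPP1R3B, so their values are shrunk more strongly. The deposited, shrunken change of PPP1R3C or PPP1R3D would have needed to reach 1.63-fold or 1.60-fold to be called at their standard errors. Before shrinkage the change needed would be larger, so both genes were only weakly measured.

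PPM1H, a metal-dependent phosphatase that removes phosphate from Rab GTPases, did not pass. It stood at 0.39 ± 0.20 in the authors' deposited table (unadjusted p = 0.0436, adjusted p = 0.171, mean 468). Genes of like level had a running median of 0.14, so 0.26 of the value lay above that of its neighbours in level.

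Of the 6 genes of other serine/threonine kinases, 2 were called, in opposite directions. Beside 15.2 percent of all genes, calls in roles of 3 to 6 tested genes do not set 1 role apart from another. PIM1 (ENSGALG00000000742) encodes a kinase that is active as soon as it is made, so that its activity follows its transcript and protein level, and that is a known target of cytokine signalling through JAK and STAT. In the authors' deposited table PIM1 fell by 0.90 ± 0.13 (log2) at a mean of 8496, the highest of the 24, with an adjusted p of 1.66e-10. The Hoxb8 level was 0.536 of the control level, with a 95% interval of 0.450 to 0.637, or about 5927 against 11065 normalised counts when the mean and the fold are taken at face value. It ranked at 128 among all tested genes by p-value.

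PRKG1 (ENSGALG00000003805) encodes the cGMP-dependent protein kinase that acts downstream of nitric oxide and natriuretic peptides and, in sensory neurons of the mouse, takes part in axon branching. The authors' deposited table gave it a rise of 0.62 ± 0.12 (log2) at a mean of 6407, with an adjusted p of 1.38e-05. The fold was 1.54 with a 95% interval of 1.30 to 1.81, or about 5055 normalised counts in control and 7760 in Hoxb8 at face value. PRKG1 ranked at 375 among all tested genes, and its call ended when all scores were divided by their central spread (adjusted p = 0.0907; the settings together span 5.31e-08 to 0.0907). Its paralogue PRKG2, the membrane-bound form of the kinase, stood at 0.21 ± 0.22 in the authors' deposited table (mean 371, adjusted p = 0.595). The 95% interval of PRKG2 ran from -0.22 to 0.64 and so takes in the value of PRKG1: the data do not show that the pair differ, nor that they do not.

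The other 3 kinase genes of this role were not called. CAMK4, a calcium/calmodulin-dependent kinase of the nucleus that phosphorylates CREB, stood at 0.27 ± 0.25 in the authors' deposited table (mean 175, adjusted p = 0.534). STK39, which encodes the SPAK kinase of the cation-chloride cotransporters, stood at 0.074 ± 0.13 (mean 3569, adjusted p = 0.769) in the authors' deposited table. DYRK3, a kinase that dissolves stress granules, stood at 0.033 ± 0.13 in the same authors' deposited table (mean 4127, adjusted p = 0.911). STK39 and DYRK3 were measured more closely than CAMK4: their 95% intervals reach at most 0.32 and 0.29 on the log2 scale, under a 1.5-fold change.

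**Figure D2:**
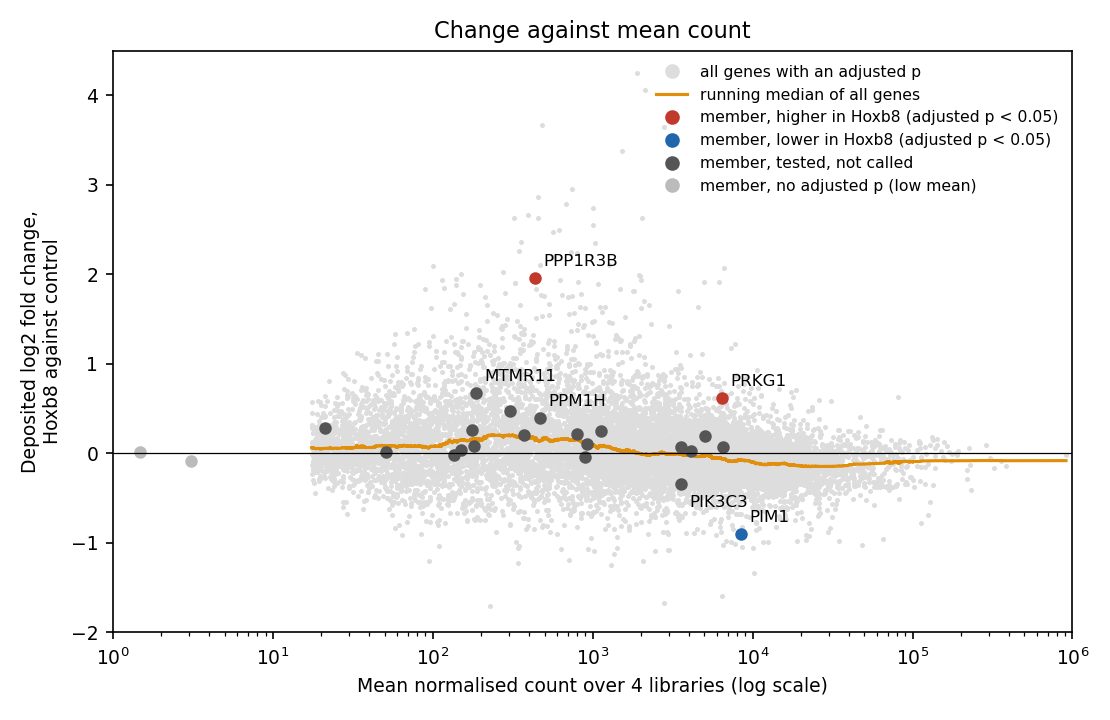
Deposited log2 fold change against the mean normalised count over 4 libraries (log scale) for all 12574 genes with an adjusted p (pale grey) and the 24 kinase and phosphatase genes (coloured by call), with the running median over 501 genes of like level. The running median lies above 0 at means of 100 to 1000 and below 0 over 10000; PPP1R3B, PRKG1 and PIM1 stand away from it.

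None of the 3 tested genes of the MAP kinase cascade was called, beside 15.2 percent of all genes. MAPK12, the p38 gamma kinase, stood at -0.043 ± 0.18 in the authors' deposited table (mean 897, adjusted p = 0.914). MAP3K9, a mixed-lineage kinase upstream of JNK, stood at 0.11 ± 0.19 (mean 917, adjusted p = 0.777), and MAP3K19 at 0.086 ± 0.25 (mean 182, adjusted p = 0.873), both in the authors' deposited table. MAP3K7CL, named for its likeness to the end of the kinase TAK1, had 5.89 normalised counts in all 4 libraries together in the authors' deposited table and no adjusted p. For these genes the direction rests on the scaling: centred on genes of like level, MAP3K9 (-0.012) and MAP3K19 (-0.074) took the other sign, and MAPK12 did (0.082) with the median of genes over 10000 set to 0.

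The cell cycle group consisted of 3 NIMA-related kinase genes, of which 0 were called and 0 had an unadjusted p under 0.05 in the authors' DESeq2 comparison. Over all genes these shares were 15.2 and 26.7 percent. NEK7, which works at the spindle poles in mitosis, stood at 0.20 ± 0.12 in the authors' deposited table (mean 5026, adjusted p = 0.305). NEK10 stood at 0.28 ± 0.23 in the authors' deposited table at a mean of 21.2, just above the lowest mean the authors adjusted for (17.5). NEK11, linked to the checkpoint between G2 and mitosis, stood at 0.035 ± 0.25 in the authors' deposited table (mean 150), and took the other sign centred on genes of like level (-0.12). The 95% interval of NEK7 ended at 0.44, a 1.35-fold rise, and that of NEK10 at 0.72, a 1.65-fold rise. With so few counts, the interval of NEK10 was built on a shrunken value and does not bound its change before shrinkage.

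Tyrosine and dual specificity phosphatases gave 3 values above 0 and 0 calls, beside 15.2 percent of all genes called. PTPN3, a cytosolic tyrosine phosphatase with FERM and PDZ domains, stood at 0.48 ± 0.22 in the authors' deposited table (unadjusted p = 0.0305, adjusted p = 0.134, mean 305). PTPRN, a protein of secretory granules without phosphatase activity, stood at 0.21 ± 0.20 (mean 797, adjusted p = 0.532) in the authors' deposited table. DUSP14, which dephosphorylates MAP kinases, stood at 0.074 ± 0.12 in the authors' deposited table (mean 6553, adjusted p = 0.758). DUSP14 had the lowest standard error of the 22, and a deposited change of 1.25-fold would have sufficed for a call. PTPN3 and PTPRN lie where genes of like level have medians of 0.20 and 0.16, which leaves 0.28 and 0.052 after centring.

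The lipid kinase and phosphatase families, with their inactive relatives, included the 2 uncalled genes closest to the threshold. MTMR11 encodes a myotubularin-related protein that lacks phosphatase activity against phosphoinositides. In the authors' deposited table MTMR11 stood at 0.67 ± 0.25 (mean 186, adjusted p = 0.0507), a value larger than that of the called gene PRKG1 but with about double the standard error. Its adjusted p was 0.0481 with a filter at a mean of 50 and 0.193 centred on genes of like level, and the settings together span 0.0135 to 0.749. PIK3C3, the class III phosphatidylinositol 3-kinase VPS34 of endosomes and autophagy, stood at -0.34 ± 0.14 in the authors' deposited table (mean 3582, adjusted p = 0.0653). Besides PIM1 it was the 1 gene whose 95% interval lay below 0, from -0.61 to -0.079. INPP5J, a phosphatase that removes the 5-phosphate of phosphoinositides, stood at 0.25 ± 0.17 in the authors' deposited table (mean 1124, adjusted p = 0.356).

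**Figure D3:**
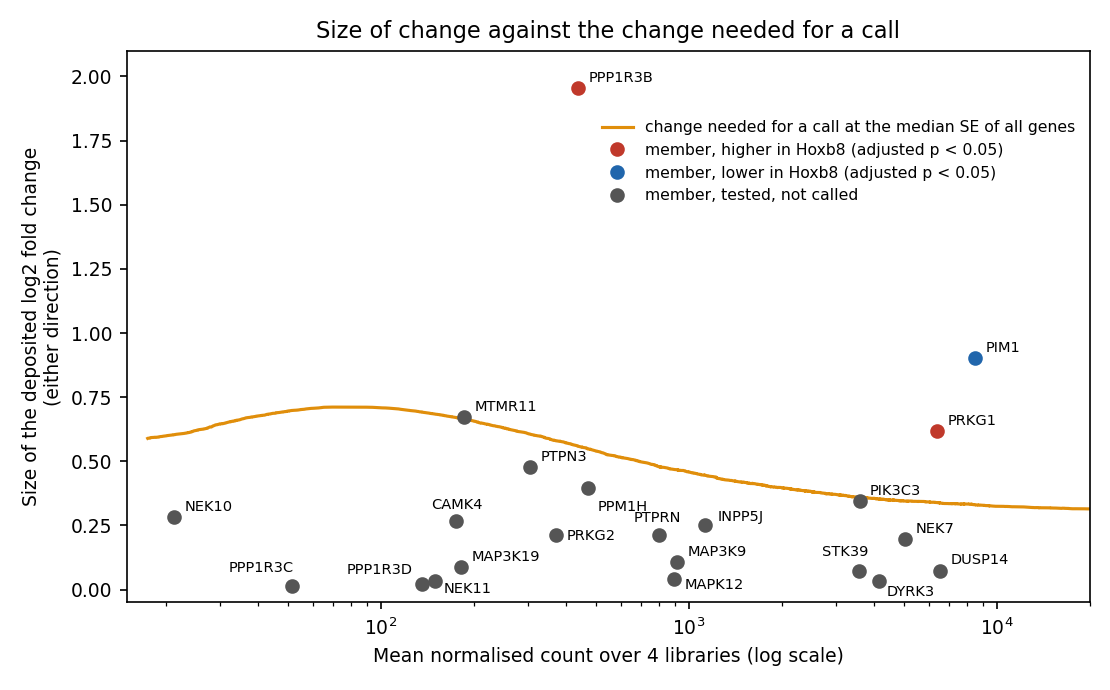
Size of the deposited log2 fold change, either direction, against the mean normalised count over 4 libraries (log scale) for the 22 genes with an adjusted p. The line is the change, on this shrunken scale, that a gene would need for a call at the median standard error of all genes of its level. PPP1R3B, PIM1 and PRKG1 lie above the line. MTMR11 lies just above it without being called, as its own standard error was 1.02 times the median. PIK3C3 lies just below the line, and the other genes further below it.

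Standard errors of the 22 genes ran from 0.12 (DUSP14) to 0.26 (PPP1R3C), between 0.943 and 1.10 times the median of genes at their level. On the scale of the deposited, shrunken values, the smallest change that could have been called ran from 1.25-fold to 1.63-fold, with a median of 1.44-fold. Before shrinkage the change needed would be larger, above all in genes with few counts. The standard errors did not simply fall with rising counts: NEK10, with the lowest mean of the 22, had 0.23, less than MTMR11 at a mean of 186 (0.25), both in the authors' deposited table. MAP3K7CL, at a mean of 1.47, had only 0.071 there. At low counts the standard errors belong to shrunken values, so NEK10 cannot be said to be measured more closely than MTMR11. Of the 19 genes not called, 11 had a 95% interval that stayed within 1.5-fold in both directions, and 1, MTMR11, had an interval that reached a 2-fold change. These intervals were built on shrunken values. They do not bound the change before shrinkage, least of all in genes with few counts.

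Most of the values lay above 0. Of the 22 genes 18 had a positive log2 fold change, with a median of 0.15, against 6174 of 12574 and a median of -0.0053 over all tested genes. Among tested genes with a symbol, 628 of 1157 were positive, with a median of 0.035. Among the 12 members with a mean of 100 to 1000 the median was 0.21, beside 0.15 for all genes there, of which 1835 of 2843 were positive. Of the 8 members at 1000 to 10000, 6 were positive with a median of 0.074, beside 2857 of 6121 and a median of -0.019 for all genes there. Centred on genes of like level, 14 of the 22 were positive and their median was 0.070. With the median of genes over 10000 set to 0, a shift of 0.12, 20 of the 22 were positive, beside 8548 of 12574 over all tested genes.

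**Figure D4:**
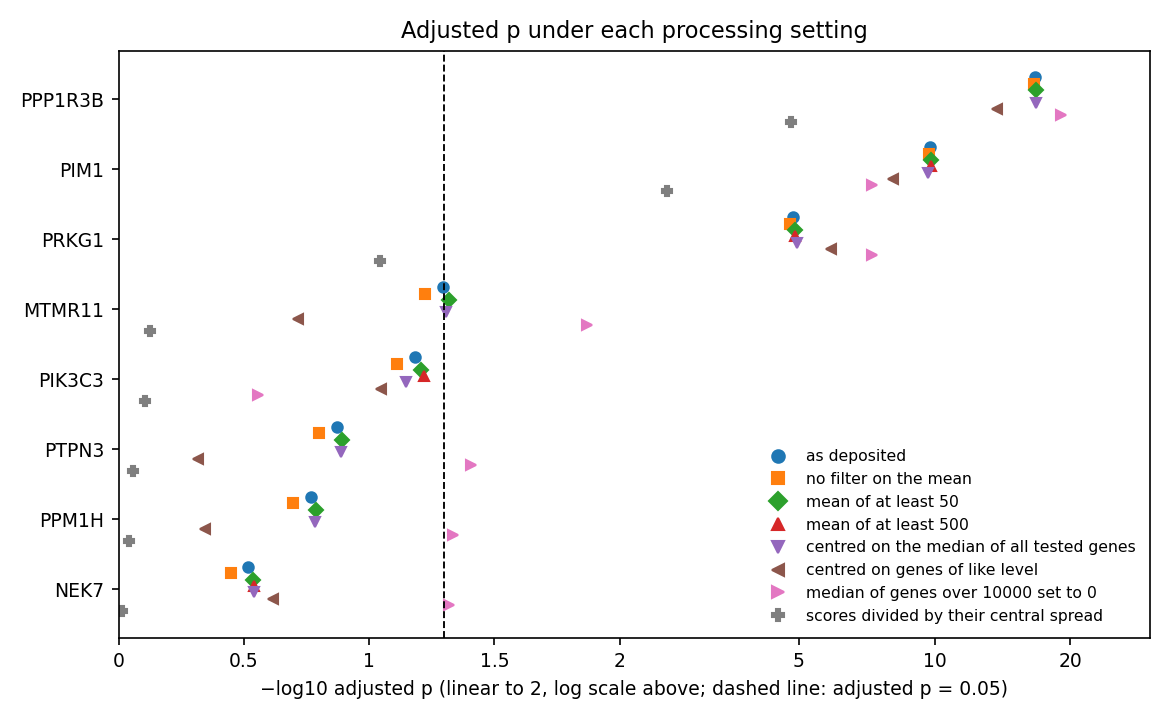
Adjusted p, as −log10, of the 3 called genes and the 5 next by p-value under the deposited values and 7 other processing settings; the dashed line marks 0.05, and the axis is linear to 2 and logarithmic above. PPP1R3B and PIM1 lie to the right of the line at every setting in which they were tested, PRKG1 at all but the division of scores by their central spread, and MTMR11 on both sides of it.

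Kinases, phosphatases and pathway genes whose symbols do not follow the family stems were read from 2 further lists. Of 219 other kinases and phosphatases only 10 carry a symbol in the table; ACVR1B was listed at 0, and of the 9 tested 0 passed in the authors' DESeq2 comparison, with 1 at an unadjusted p under 0.05. That gene was SPHK1, sphingosine kinase 1, with a value of 0.35 ± 0.18 and an adjusted p of 0.173 in the authors' deposited table. Over all genes 15.2 percent passed and 26.7 percent had an unadjusted p under 0.05. In a list of 9 genes, 0 calls do not show that these enzymes differ from that background. The median of the 9 was 0.049. Among them the BMP receptor kinase gene ACVR1 stood at -0.11 ± 0.12 and AAK1, a kinase of clathrin adaptors, at 0.082 ± 0.13 in the authors' deposited table.

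Of 154 adaptors, ligands, substrates and regulators of these enzymes, 16 were tested, 0 were higher and 2 were lower, with a median log2 fold change of -0.071. The 12.5 percent called is near the 15.2 percent over all genes, of which 8.72 percent were higher and 6.49 percent lower. RASSF9, of the Ras association domain family, fell, at -1.04 ± 0.22 in the authors' deposited table (mean 348, adjusted p = 5.40e-05), a call that ended with scores divided by their central spread (adjusted p = 0.134; the settings together span 1.11e-06 to 0.134). CAB39 encodes MO25, the scaffold that activates the kinase LKB1 and also SPAK, the product of STK39. It fell too, at -0.31 ± 0.11 in the authors' deposited table (mean 24733, adjusted p = 0.0392), but centring on genes of like level left -0.17 (adjusted p = 0.375; the settings together span 0.0366 to 0.718). SESN2, a stress-induced inhibitor of mTORC1, stood at -0.52 ± 0.20 (adjusted p = 0.0541) and RICTOR, a subunit of mTORC2, at -0.31 ± 0.17 (adjusted p = 0.214) in the authors' deposited table. CISH, an inhibitor of JAK and STAT signalling that is itself a target of it, stood at 0.55 ± 0.25 (adjusted p = 0.130) at a mean of only 41.3 in the authors' deposited table. The insulin receptor substrates IRS1 (0.10 ± 0.15) and IRS2 (0.30 ± 0.17), the Ras and ERK inhibitor SPRED1 (-0.043 ± 0.13) and the mTORC1 inhibitor TSC2 (0.019 ± 0.13) were not called in the authors' deposited table.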

How the data were processed

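Polyadenylated RNA of 2 control and 2 Hoxb8 samples was compared. The tools in the submitters' processing notes are featureCounts, Subread, DESeq2 and DESeq, with the build galGal4, and the file's name gives Ensembl release 85. Roles, versions and strand setting were not given in the sources used here, so reads of overlapping or antisense genes may be mixed. Per the file headers, the authors' deposited signal is the mean normalised count, and the log2 fold change has a standard error and a Wald score. The authors' deposited p-values equalled normal two-sided p-values from the score, and their adjusted p-values Benjamini-Hochberg values over 12574 genes (deviations under 1e-13). Genes with a lower mean than 17.5 (2287) have no adjusted p, and 2247 are listed at 0. The deposited standard errors do not exceed 0.267 even at the lowest means, which points to shrunken fold changes.

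The count model planned was not run for want of values per library: the authors' DESeq2 calls over all genes are the main result. Intervals (95%), the change needed for a call, levels per group at face value, running medians over 501 genes and 10 alternatives were computed with Python 3.11.15, numpy 2.4.6 and scipy 1.17.1, and the code was tested on simulated data. Levels at face value assume equal group sizes and the moderated fold. All 24 symbols are current in the RefSeq gene table of GRCg7b. The text names every called member, in each role the 4 of lowest p and 3 of highest mean, and called genes of the 2 further lists; the other list genes, and the markers, were named after their values were seen. Members, roles and lists were chosen with earlier results of these data known.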

Additional observations from a re-analysis of the deposited data

How the results depend on the processing

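No paired analysis was possible because single libraries have no values in the file; leaving out replicates, edgeR and other size factors were not run for the same reason. PPP1R3B and PIM1 were called under every alternative in which they were tested, with adjusted p of at most 1.59e-05 and 0.00286, but PPP1R3B falls out of the table at a mean of at least 500, where 1 member was higher. Of the members, 5 rather than 3 passed an adjusted p under 0.1, with MTMR11 and PIK3C3 added, so 2 were lower. Of all genes 19.8 percent passed there. Once the median of genes over 10000 was set to 0, 7 members passed, 6 of them higher. That shift moves every gene up and added MTMR11, PTPN3, PPM1H and NEK7, and 17.6 percent of all genes passed under it. With scores divided by their central spread (1.69), 1 member was higher, since PRKG1 lost its call, and over all genes 312 rather than 1913 passed. With genes over 10000 at 0, 83.7 percent of all calls were higher against 57.3 percent as deposited. MTMR11 also passed centred on the median of all genes and at a mean of at least 50. The CAB39 call was lost in 5 alternatives. Signs turned for uncalled genes only: centred on genes of like level, MAP3K9 (-0.0121), MAP3K19 (-0.0744), NEK11 (-0.117) and PPP1R3C (-0.0686); with genes over 10000 at 0, MAPK12 (0.0820) and PPP1R3D (0.103). Over the 22 tested members with CAB39 and RASSF9, 206 values kept direction and call, 8 gained a call and 7 lost one, of which 5 were of CAB39, 1 of RASSF9 and 1 of the member PRKG1. Only the settings that shift the fold changes can turn a sign. A looser threshold cannot remove a call, and a stricter one cannot add one. Much of what was kept was therefore fixed in advance. PPP1R3A and MAP3K7CL have no adjusted p, and at their low means (3.09 and 1.47) no change could be called under the filter of the authors.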
